A study of Rattus norvegicus with 7 samples.

Results

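Of the 6240 features on the array, 5 cDNA clones were taken by their identity, with no limit on their values: lactate dehydrogenase A (Ldha, clone RGIAN09), pyruvate dehydrogenase (PDH) phosphatase (Pdp1, RNABX11), adipose differentiation-related protein (Plin2, RGIAT38), cytochrome P450 1b1 (Cyp1b1, RNABX41) and cytochrome P450 2D2 (Cyp2d2, RNACD76). All 5 are listed as upregulated at 1 day post injury (dpi), so the 1 dpi values chose them and are given below as a description, without a test. The clone names are those of the study's lists, the symbols were matched to these names by hand, and RGIAT38 is an expressed sequence tag named by its similarity to the lipid droplet gene. The name PDH phosphatase gives no isoform, so the symbol Pdp1 is an assumption that no clone sequence was at hand to check. A cDNA clone of Cyp2d2 can take up message of the near-identical Cyp2d genes beside it, so its values are uncertain as to the gene.

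Male Sprague Dawley rats received a cerebral cortical contusion (CCC) under fentanyl, fluanisone and midazolam anaesthesia, with lidocaine under the scalp, by a weight dropped on the dura through a craniotomy posterior and lateral to bregma. The impact area with the cortex around it was dissected from 3 rats at 1 dpi and 4 rats at 4 dpi, and on 1 array per rat its RNA was set against the contralateral, uninjured cortex of the same rat in the opposite dye. Injured cortex carried Cy5 on replicates 1 and 2 of 1 dpi and on replicates 2 and 3 of 4 dpi, and Cy3 on the others. The age of the rats is not given in the sources used here, all rats had the craniotomy, and no array held tissue of a rat without contusion. A value is the log2 ratio of injured to uninjured cortex, where 0 stands for no difference and 1 for a doubled signal. It gives no level of a gene in either cortex, so the tissue could not be checked by the levels of its markers, and in dissected tissue a changed number of cells cannot be told apart from a changed amount of RNA per cell.

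Lactate dehydrogenase A turns pyruvate into lactate and restores the NAD+ that glycolysis needs. PDH phosphatase removes phosphate from the PDH complex and so switches on the entry of pyruvate into the citrate cycle. Perilipin 2, the product of Plin2, coats lipid droplets, which store neutral lipid in many cell types, among them macrophages that have taken up lipid. Cytochromes P450 oxidise steroids, fatty acids and foreign compounds, and Cyp1b1 is a textbook target of the aryl hydrocarbon receptor, whereas Ldha is one of the hypoxia-inducible factor.

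Promoters are shown because the clones shared a positive ratio at 1 dpi and because the known regulators of Ldha and Cyp1b1 bind short cores that can be searched for. Of the 5 genes, 4 had an entry in the RefSeq promoter table of the rat assembly GRCr8, and for Pdp1 only the name is given. The stretches below are the 250 bases before the annotated start, 5′ to 3′ in the direction of the gene, and capitals mark every match to ACGTG, a core bound by the hypoxia-inducible factor, or GCGTG, a core shared by hypoxia and xenobiotic response elements, on either strand.
Ldha: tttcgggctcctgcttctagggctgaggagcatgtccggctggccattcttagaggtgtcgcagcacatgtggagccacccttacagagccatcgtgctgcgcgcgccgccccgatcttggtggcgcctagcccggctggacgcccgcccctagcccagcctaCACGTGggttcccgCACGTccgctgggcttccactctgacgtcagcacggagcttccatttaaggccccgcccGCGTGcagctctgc
Plin2: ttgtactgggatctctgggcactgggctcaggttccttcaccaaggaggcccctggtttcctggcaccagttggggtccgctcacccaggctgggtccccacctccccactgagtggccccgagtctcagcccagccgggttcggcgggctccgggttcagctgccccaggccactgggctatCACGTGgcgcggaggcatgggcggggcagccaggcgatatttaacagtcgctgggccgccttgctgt
Cyp1b1: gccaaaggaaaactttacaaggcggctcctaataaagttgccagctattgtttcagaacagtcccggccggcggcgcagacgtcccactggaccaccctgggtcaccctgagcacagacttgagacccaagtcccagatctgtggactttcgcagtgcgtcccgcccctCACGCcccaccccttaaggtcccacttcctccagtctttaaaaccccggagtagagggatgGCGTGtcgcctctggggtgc
Cyp2d2: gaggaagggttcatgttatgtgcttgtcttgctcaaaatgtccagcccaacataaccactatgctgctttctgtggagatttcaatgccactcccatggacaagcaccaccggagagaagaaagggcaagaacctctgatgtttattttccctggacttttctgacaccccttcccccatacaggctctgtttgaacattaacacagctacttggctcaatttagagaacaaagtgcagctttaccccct
The Ldha stretch lies on chromosome 1 (1:106507842-106508091, plus strand), directly before the annotated gene. That of Plin2 (5:106229019-106229268, minus strand) lies within the annotated span of the gene, which also has a longer transcript. The Cyp1b1 stretch (6:21094315-21094564, plus strand) likewise lies within the gene's annotated span, and that of Cyp2d2 (7:115819282-115819531, minus strand) directly before the gene. Ldha held 4 matches. The capitals CACGTG, 87 to 82 bases before the start, are an E-box that reads as ACGTG on both strands and so counts as 2 of them, CACGT follows at 73 to 69 bases and GCGTG at 14 to 10 bases. Plin2 held a CACGTG as well, 67 to 62 bases before the start. Cyp1b1 held GCGTG on both strands, at 81 to 77 bases and at 20 to 16 bases, and no ACGTG. Cyp2d2 held 0 matches, as did a second annotated start of Plin2. Among 33469 promoter stretches of the same length, 16.6% held ACGTG, 25.9% held GCGTG, 5.59% held CACGTG and 36.7% at least 1 of the first pair. A match is only a run of letters, and binding was not measured here.

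Members and arrays differed in how often a value could be read. Spots that were absent or weak against the background were left out before deposit, and between 2332 and 5208 features had a value on an array. Of the 35 values that 5 clones on 7 arrays could give, 23 were present, 13 of 15 at 1 dpi and 10 of 20 at 4 dpi. All 5 clones had a value on replicate 2 of 4 dpi, whereas replicate 3 of 4 dpi, the array with the fewest features, held Ldha alone. Ldha had a value on every array, Pdp1 and Plin2 on 2 arrays of 4 dpi, and each cytochrome P450 clone on 1 array of 4 dpi. Over all 4952 features with a value on at least 2 arrays of 1 dpi, 45.8% had a value on every array of 4 dpi and 14.7% on 1 array. Among those called upregulated at 1 dpi, by the limits given below, these shares were 32.1% and 17.6%, and 26.4% had a value on 2 arrays. Means over so few arrays are imprecise, and the number of values is given with each.

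All 23 values lay above 0. For comparison, 28.8% of 5487 features at 1 dpi and 28.7% of 5206 features at 4 dpi were above 0 on every array with a value. A feature was called upregulated at an adjusted p of 0.02 or less (limma, Benjamini-Hochberg adjustment over all features tested) and a mean log2 ratio above 0.7. The study set its limit of 0.02 on the q of SAM and describes the limit of 0.7 both as one on the mean and as applied to each array, and the mean is used here. This call was reached by 3.9% of 4952 features at 1 dpi and by 2.63% of 3191 features at 4 dpi, where a value on at least 3 arrays was needed. All 5 clones met these limits at 1 dpi, which follows from how they were chosen, and 4 of 5, all but Pdp1, were above 0.7 on every array with a value. As a description, without replicate 2 of 1 dpi 2 of the 3 clones that could be fitted met them, and Pdp1, with a mean of 0.71, missed the limit on the adjusted p. The cytochrome clones could not be fitted without replicate 2 or 3. At 4 dpi 1 of the 5, Ldha, had enough values to be tested. It was not called by limma or by SAM (Significance Analysis of Microarrays, the test of the study), so 0 members were called. The study tested the same arrays and lists none of the 5 as regulated at 4 dpi, so this is not an independent result. The unadjusted limma p of Ldha was under 0.05, as it was, with a mean above 0, for 15.8% of the 3191 features.

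**Figure D1:**
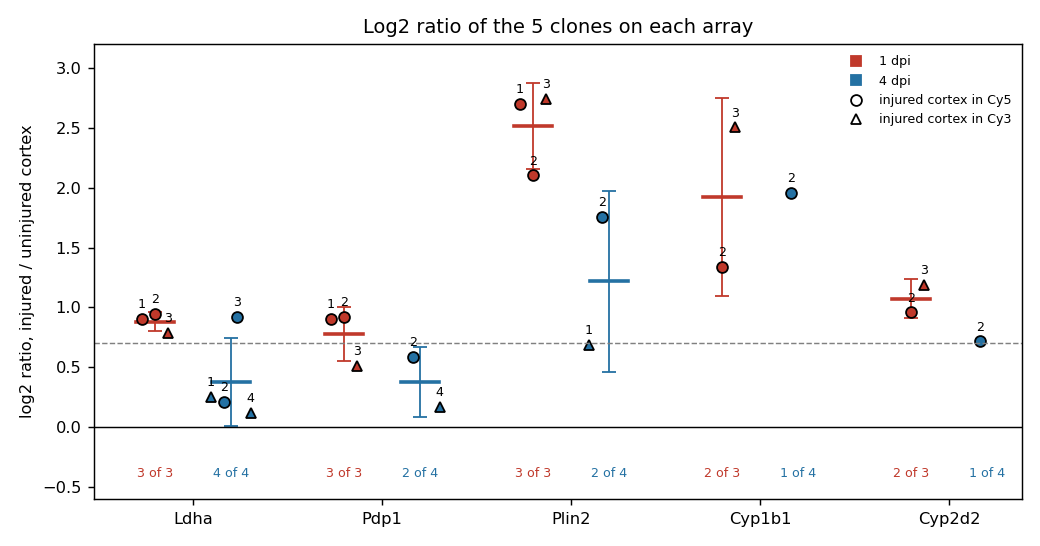
Log2 ratio of injured to uninjured cortex (vertical axis) of the 5 clones at 1 dpi (red) and 4 dpi (blue). Each point is 1 array with its replicate number, circles and triangles show the dye of the injured cortex, thick lines and bars are the mean and SD where at least 2 arrays had a value, the dashed line is the limit of 0.7, and the counts below give the arrays with a value. Plin2 stood highest at 1 dpi (mean 2.51), and the values of 4 dpi are fewer for every clone but Ldha.

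The lactate and pyruvate enzymes had the smallest mean ratios of the 5. Ldha stood at 0.90, 0.94 and 0.79 on replicates 1, 2 and 3 of 1 dpi. At 4 dpi it stood at 0.25, 0.21, 0.92 and 0.12 on replicates 1 to 4. The arrays of 1 dpi lay close together, and those of 4 dpi were low on 3 arrays and within the range of 1 dpi on replicate 3, so the time points overlapped. The mean at 1 dpi was 0.88 ± 0.08 (SD, n = 3), a 1.84-fold ratio. At 4 dpi it was 0.38 ± 0.37 (SD, n = 4), a 1.30-fold ratio with a 95% confidence interval from 0.07 to 0.68 on the log2 scale, and it was not called (limma, adjusted p = 0.0989). Over the other settings the adjusted p of limma ran from 0.0476 to 0.18, always with a mean under 0.7. Without replicate 3 the mean of 4 dpi was 0.19 (limma, adjusted p = 0.163), with an interval that included 0. The 1 dpi listing of these clones used other animals than those of 4 dpi. The study also tested the 4 dpi arrays, however, and lists none of the 5 as regulated then. Results of both time points were known when these clones were put in 1 set, so the missing call at 4 dpi is not independent of the listing. The mean of 4 dpi was 0.57 on the 2 arrays with injured cortex in Cy5 and 0.19 on the 2 arrays with it in Cy3, and with a dye term in the fit the adjusted p was 0.0476. At 1 dpi the corresponding means were 0.92 (2 arrays) and 0.79 (1 array).

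Pdp1 stood at 0.90, 0.92 and 0.51 on replicates 1, 2 and 3 of 1 dpi, so that replicate 3, the array with injured cortex in Cy3, was under 0.7. At 4 dpi it had 0.59 on replicate 2 and 0.17 on replicate 4, and no value on replicates 1 and 3. The higher value of 4 dpi lay above the lowest of 1 dpi, and the time points overlapped. The means were 0.78 ± 0.23 (SD, n = 3) and 0.38 ± 0.29 (SD, n = 2). With a value on 2 arrays taken as enough, 2.53% of 4151 features were called upregulated at 4 dpi, and Pdp1 was not among them (limma, adjusted p = 0.189, 95% confidence interval from 0.01 to 0.75). Its value of 4 dpi with injured cortex in Cy5 was above that in Cy3, as for Ldha. That order was not shared by all members. At 1 dpi it was reversed for Plin2 (mean 2.40 in Cy5 and 2.74 in Cy3), Cyp1b1 (1.34 and 2.50) and Cyp2d2 (0.96 and 1.19).

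Plin2, the lipid droplet gene, had the largest mean ratio of the 5 at 1 dpi. It stood at 2.70, 2.10 and 2.74 on replicates 1, 2 and 3 of 1 dpi, and 8, 16 and 6 features of these arrays stood above it. At 4 dpi it had 0.68 on replicate 1 and 1.75 on replicate 2, with no value on replicates 3 and 4. Both values of 4 dpi lay below all 3 values of 1 dpi. The mean was 2.51 ± 0.36 (SD, n = 3), a 5.71-fold ratio, at 1 dpi and 1.22 ± 0.76 (SD, n = 2), a 2.33-fold ratio, at 4 dpi. When 2 arrays were taken as enough for the test, the interval at 4 dpi ran from 0.65 to 1.78, and Plin2 missed the call (limma, adjusted p = 0.0231). At an adjusted p of 0.05 it would pass in that fit. The arrays of 4 dpi that gave a value differed in dye, Cy3 on replicate 1 and Cy5 on replicate 2, and by 1.07 in the log2 ratio, and dye and animal cannot be told apart there.

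Cyp1b1, which oxidises oestrogens and polycyclic hydrocarbons, had no value on replicate 1 of 1 dpi. It stood at 1.34 on replicate 2 and 2.50 on replicate 3 of 1 dpi, and at 1.96 on replicate 2 of 4 dpi, its only value there. The value of 4 dpi fell between those of 1 dpi. On replicate 2 of 4 dpi 18 of 5082 features stood above it, and 24 above Plin2. The mean of 1 dpi was 1.92 ± 0.82 (SD, n = 2), a wider spread than that of the other members at that time point. Its arrays of 1 dpi differed in dye, with injured cortex in Cy5 on replicate 2 and in Cy3 on replicate 3. The value of 4 dpi was in Cy5, and dye and animal cannot be told apart here. The other cytochrome P450 clone, Cyp2d2, belongs to a family known for the oxidation of drugs and amines. It stood at 0.96 and 1.19 on replicates 2 and 3 of 1 dpi (mean 1.07 ± 0.16, SD, n = 2) and at 0.72 on replicate 2 of 4 dpi, below both values of 1 dpi. No test was possible for either clone at 4 dpi with 1 value, and the fits on at least 2 arrays did not hold them.

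**Figure D2:**
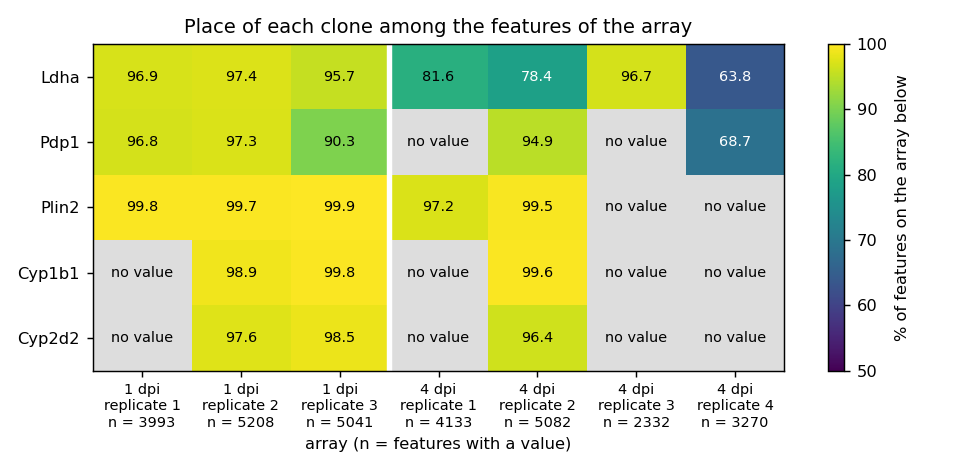
Percentage of the features with a value on an array that stood below each clone, by colour and by number, for the 7 arrays (columns, with the number n of features that had a value) and the 5 clones (rows). Grey cells had no value. At 1 dpi every value lay above at least 90.3% of the features, and at 4 dpi Ldha ranged from 63.8% to 96.7%.

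Placed among the features of its own array, which takes out the different spread of the arrays, Plin2 stood above 97.2% and 99.5% of features at 4 dpi and Cyp1b1 above 99.6%. Cyp2d2 stood above 96.4%. Ldha fell to 81.6%, 78.4% and 63.8% on replicates 1, 2 and 4 of 4 dpi but stood above 96.7% on replicate 3. Pdp1 stood above 94.9% on replicate 2 and 68.7% on replicate 4. Ldha and Pdp1 were thus nearer the middle of the array on replicate 4 than the cytochromes and Plin2 were on any array that measured them.

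By the means of 1 dpi the order was Plin2 (2.51), Cyp1b1 (1.92), Cyp2d2 (1.07), Ldha (0.88) and Pdp1 (0.78). The arrays of Plin2 and Cyp1b1 overlapped, and so did those of Ldha and Pdp1, whereas every array of Cyp1b1 lay above those of Cyp2d2 and every array of Cyp2d2 above those of Ldha. By rank among the 4952 features tested, these means were number 10, 20, 80, 123 and 166. At 4 dpi the order was Cyp1b1 (1.96, 1 array), Plin2 (1.22), Cyp2d2 (0.72, 1 array), Pdp1 (0.38) and Ldha (0.38), with overlapping arrays for Pdp1 and Ldha, and with Cyp2d2 between the 2 values of Plin2. Replicate 2 of 4 dpi was the only array of that time point to measure all 5, and on it the order was Cyp1b1, Plin2, Cyp2d2, Pdp1 and Ldha. These are differences between the cortices and not levels of the genes.

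The mean of 4 dpi minus that of 1 dpi, on the log2 scale, was -0.50 for Ldha (4 and 3 arrays), -0.40 for Pdp1 (2 and 3 arrays) and -1.30 for Plin2 (2 and 3 arrays). With 1 array left out it ran from -0.61 to -0.19 for Pdp1 and from -1.83 to -0.76 for Plin2, which had -0.80 with the arrays scaled to the same spread. For the cytochromes it rests on 1 array of 4 dpi and 2 of 1 dpi. It was 0.04 for Cyp1b1, -0.55 or 0.62 when 1 array of 1 dpi was left out, and 0.71 with the arrays scaled. It was -0.36 for Cyp2d2, and -0.10 with the arrays scaled. The differences hold the values that chose the clones and are given without a test. A lower mean at 4 dpi was seen for 83.1% of the 178 features called upregulated at 1 dpi with a value at 4 dpi, so a lower mean in 4 of the 5 clones is no result about them. Of the 3 clones with at least 2 values at each time point, Plin2 had all arrays of 4 dpi below all arrays of 1 dpi. That held for 10.3% of 4097 features and for 43.8% of the 144 of them called upregulated at 1 dpi, and since the 1 dpi values chose the clone nothing is read from it.

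Other clones of the same pathways were taken from the study's lists of regulated genes, so they were chosen on these arrays and their counts are not independent evidence. Beside the counts below stand 3.9% of all features called upregulated and 1.51% called downregulated at 1 dpi, and 2.63% and 0.376% at 4 dpi, with a mean below -0.7 as the limit for downregulated features. In glucose, pyruvate and citrate cycle metabolism, 2 of 3 clones were upregulated at 1 dpi and 0 of 3 at 4 dpi. They were glucose transporter type 1 (RGIAK80), which carries glucose across the blood-brain barrier, and phosphofructokinase (RNABU76), which commits glucose to glycolysis. The transporter had 1.30, 1.22 and 0.60 at 1 dpi and -0.28, 0.87, 0.11 and 0.22 at 4 dpi. Phosphofructokinase had 0.66, 0.92 and 0.78 at 1 dpi and 0.12, 0.29, 0.28 and 0.21 at 4 dpi. Every array of 1 dpi lay above 0 for both, and at 4 dpi phosphofructokinase was low on all arrays, replicate 3 included, where Ldha was not. At 4 dpi neither was called (limma, adjusted p = 0.369 for the transporter and 0.119 for phosphofructokinase) by limma or by SAM, although the unadjusted limma p of 1 of the 3 clones, phosphofructokinase, was under 0.05, as it was, with a mean above 0, for 15.8% of all features tested. The third clone, an isocitrate dehydrogenase (RNACC94), an enzyme of or beside the citrate cycle, lay below 0 on every array of 1 dpi, at -0.94, -0.62 and -0.51. Its mean of -0.69 passed the adjusted p (limma, adjusted p = 0.00602) but not the limit of 0.7, and at 4 dpi it had 0.12 ± 0.25 (SD, n = 4; limma, adjusted p = 0.529). The median of the 3 means was 0.79 at 1 dpi and 0.23 at 4 dpi, against 0.01 and -0.01 over all features tested. The values under the listed ID of aldolase C were missing, and it was not used.

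In lipid handling, Plin2 was above 0 on every array of 1 dpi, where 5 of 6 other clones had a mean below 0. Of the 6, 1 was upregulated and 1 downregulated at 1 dpi, and 1 was upregulated at 4 dpi, and the median of the 6 means was -0.68 at 1 dpi and 0.33 at 4 dpi. Fatty acid binding protein 5 (RNABR39), which carries fatty acids within the cell, was upregulated at both, with 0.94 ± 0.07 (SD, n = 3) and 1.00 ± 0.44 (SD, n = 4; limma, adjusted p = 0.0034). A peroxisomal enoyl hydratase-like protein (RGIAE70), named for an enzyme of fatty acid oxidation, was downregulated at 1 dpi, with -0.72 ± 0.10 (SD, n = 3), and had 0.32 ± 0.28 (SD, n = 4; limma, adjusted p = 0.0984) at 4 dpi. Lipoprotein lipase (RGIAA23), which frees fatty acids from circulating triglyceride, had -0.66 ± 0.26 (SD, n = 3) and -0.10 ± 0.42 (SD, n = 4). At 1 dpi it passed the adjusted p (limma, adjusted p = 0.00896) but not the limit of 0.7, and at 4 dpi neither (0.692). The other clones, 2,4-dienoyl-CoA reductase, a carnitine/acylcarnitine carrier and apolipoprotein E, had means from -0.70 to -0.68 at 1 dpi, which passed the adjusted p (limma, adjusted p from 0.00587 to 0.00649) and missed only the limit of 0.7. At 4 dpi their means were 0.56 (adjusted p = 0.0246), -0.20 (0.317) and 0.33 (0.188), and none was called.

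**Figure D3:**
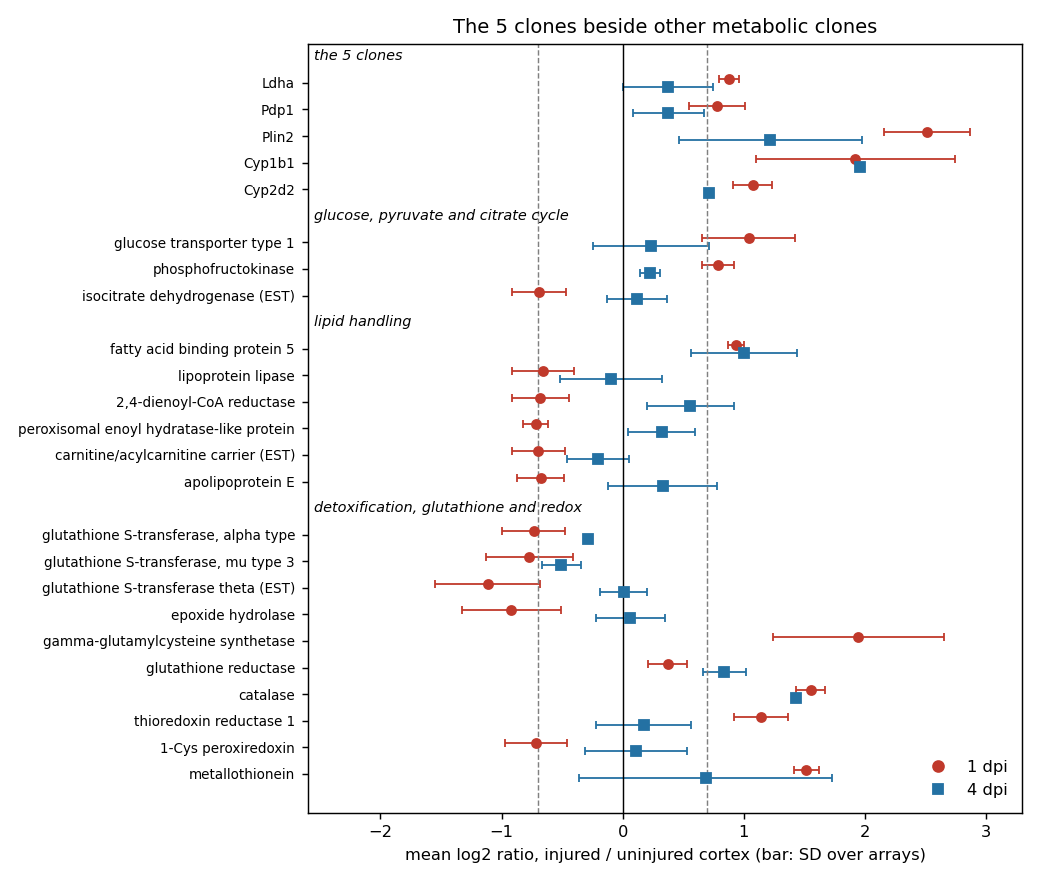
Mean log2 ratio of injured to uninjured cortex (horizontal axis) with its SD over arrays, at 1 dpi (red circles) and 4 dpi (blue squares), for the 5 clones and for the other clones of 3 lists, with dashed lines at 0.7 and -0.7. A mark without a bar is 1 array or has a bar narrower than the mark. Plin2 (2.51) and fatty acid binding protein 5 (0.94) lay to the right at 1 dpi and the other lipid clones to the left.

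Among detoxification, glutathione and redox clones, 4 of 10 were upregulated and 5 of 10 downregulated at 1 dpi, and 1 of 7 tested was upregulated at 4 dpi, with medians of -0.17 and 0.11. The largest means were those of gamma-glutamylcysteine synthetase (RNABT53), the rate-limiting enzyme of glutathione synthesis, at 1.95 ± 0.71 (SD, n = 2), and catalase (RNABM26), which breaks down hydrogen peroxide, at 1.55 ± 0.12 (SD, n = 3). Like the cytochrome clones they lacked values at 4 dpi, where the synthetase had 0 and catalase 1 (1.43). Epoxide hydrolase (RGIAI20), which opens epoxides such as those that cytochromes P450 form, was downregulated, with -0.92 ± 0.41 (SD, n = 3) at 1 dpi, and stood at 0.27 on replicate 1 and -0.14 on replicate 2 of 4 dpi, its only values there. On replicates 2 and 3 of 1 dpi, the arrays that measured both cytochrome clones, it lay below 0 and they lay above 0. All 3 glutathione S-transferase clones of the list were downregulated at 1 dpi. At 4 dpi their means ran from -0.51 to 0.01, none beyond 0.7, and the mu type 3 clone (RNABI84), below 0 on all 4 arrays, passed the adjusted p (limma, adjusted p = 0.00989).

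By the mean absolute difference of log2 ratios over the arrays on which a member had a value, the nearest of 96 named clones to Ldha over all 7 arrays was phosphofructokinase, at 0.176 per array, and 0 of the 2189 features with a value on all arrays were nearer. The cholecystokinin precursor (RNABU89), a neuropeptide, followed at 0.191 and prothymosin alpha (RNABM91), a nuclear protein, at 0.208. On replicate 3 of 4 dpi cholecystokinin stood at 1.13 and prothymosin alpha at 0.52, and phosphofructokinase at 0.28. For Plin2 over 5 arrays, the nearest of 142 named clones were the S-100 related protein (RNABO14) at 0.385, syndecan 1 (RGIAE40), a cell surface proteoglycan, at 0.415 and the FYN binding protein (RGIAO59), an adaptor of blood cells, at 0.420. For Plin2, 0 of 3522 features were nearer than the S-100 related clone. The distances are larger than those of Ldha, but they are in log2 units, between larger ratios and over fewer arrays, so the likeness cannot be compared. The S-100 related and FYN binding clones stood at 2.90 and 1.64 on replicate 3 of 4 dpi, where Plin2 had no value. For Pdp1 over 5 arrays, histone H3.3 (RNABX66) was nearest at 0.0792, then a clone named for a C. elegans hypothetical protein (RGIAE37) at 0.143 and phosphofructokinase at 0.169.

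For the cytochromes the likeness rests on 3 arrays each. Prostaglandin E synthase (RGIAO01), which makes prostaglandin E2, was nearest to Cyp1b1 at 0.0705, with 1.29 and 2.35 on replicates 2 and 3 of 1 dpi and 1.97 on replicate 2 of 4 dpi. On replicate 1 of 4 dpi, where Cyp1b1 had no value, it stood at -1.46. The FYN binding protein (0.178) and the melanoma-associated antigen MG50 (RGIBC53, 0.259) came next. For Cyp2d2 these were a clone listed as ser/thre-like protein lyk4 (RGIAQ39, 0.0665), ornithine decarboxylase (RGIAC87, 0.0862), the first enzyme of polyamine synthesis, and insulin-like growth factor-binding protein 3 (RNABK89, 0.0874).

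**Figure D4:**
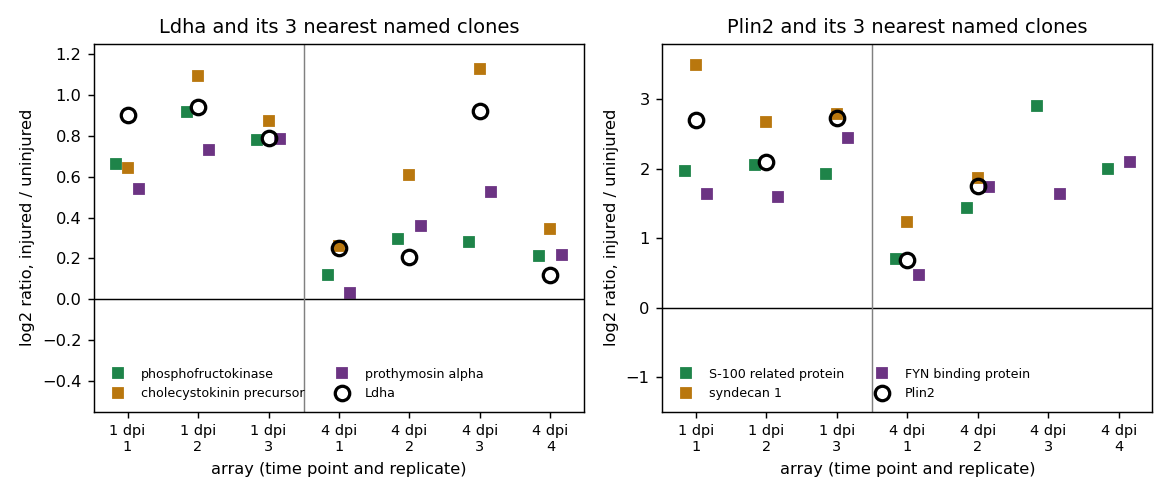
Log2 ratio of injured to uninjured cortex (vertical axis) on each of the 7 arrays (horizontal axis) for Ldha (left) and Plin2 (right) as open circles and for the 3 named clones nearest to each as squares, set slightly apart. Phosphofructokinase stayed between 0.12 and 0.29 at 4 dpi, while Ldha reached 0.92 on replicate 3, and Plin2 had no value on replicates 3 and 4 of 4 dpi.

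Markers of other cells moved on the same arrays. Of 5 phagocyte clones, 4 were upregulated at 1 dpi, and all 4 tested were upregulated at 4 dpi. The largest means of 4 dpi were those of C1q beta chain (RNABQ08, 0.74 ± 0.17, n = 3, at 1 dpi and 1.75 ± 0.56, n = 3, at 4 dpi) and C1q C chain (RGIAJ90, 0.70 ± 0.10, n = 3, and 1.69 ± 0.33, n = 4; SD in each case). At 1 dpi MHC class II DM beta (1.19, n = 2) and the class III Fc gamma receptor (0.84, n = 3) stood above both. The mean of the phagocyte clones per array ran from 0.60 to 0.93 at 1 dpi and from 0.91 to 1.70 at 4 dpi. It was 0.60, 0.69 and 0.93 on replicates 1, 2 and 3 of 1 dpi, where Plin2 stood at 2.70, 2.10 and 2.74, and 0.91 and 1.36 on replicates 1 and 2 of 4 dpi, where Plin2 stood at 0.68 and 1.75. Plin2 was thus higher at 1 dpi, and the phagocyte mean was lower there except that its highest value of 1 dpi lay just above its lowest of 4 dpi. Of 5 neuron clones, 2 were upregulated and 2 downregulated at 1 dpi, and 1 of 4 tested was upregulated and 2 downregulated at 4 dpi, with means per array from -0.09 to 0.18 and from -0.14 to 0.18. The largest were neuropeptide Y (RNABV45, 1.45 ± 0.27, SD, n = 3) and the GABA-A receptor delta subunit (RNABY14, -1.11 ± 0.40, SD, n = 3) at 1 dpi. These clones come from the study's lists as well, and the shares of all features called in each direction are those given above. No marker level was at hand, since ratios hold none, and the part of these cells in the ratios of the 5 clones was not tested.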

How the data were processed

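The authors scanned cDNA arrays, took spot intensity minus local background, left out absent and weak spots, turned the dyes of swapped arrays, normalised each array by Lowess in the SMA package for R and deposited log2 ratios of injured to uninjured cortex. Scaling between arrays is not given in the sources used here, and spot intensities were not analysed. Arrays were grouped by their labels, and every column of values was that of a sample.

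For 1 dpi and 4 dpi apart, limma 3.58.1 (lmFit, eBayes, R 4.3.3) set each feature's mean against 0, with Benjamini-Hochberg adjustment and a value needed on at least 2 arrays of 1 dpi and 3 of 4 dpi. limma stood in place of SAM, which was run as a one-class test after each missing value was filled from the 10 nearest features. On simulated ratios with 200 features changed by 2 (log2), limma recovered 96.5% at 1 dpi with 1 false call and 100% at 4 dpi with 0. That change is larger than the mean of Ldha at 4 dpi, 0.38, the only member tested there. Recovery of a change as small as this mean was not tested. Of 253 clones in Additional files 1 and 2, 238 were used as named, and the others were left out because the ID was not found, was shared, or held values more than 0.2 (log2) from the listed ones or no values, a tolerance chosen after seeing the values. The text names the 5 members, for each the 3 nearest named clones, and per list the 2 clones with the largest absolute mean and any enzyme next to a member. Members, lists and tests were chosen with earlier results of these data known. Alternatives were SAM, other limits and array minima, a dye term, both time points fitted at once, medians, centring, scaling to 1 spread, the replicate number as a block and each array left out. Replicates are animals. Python 3.11.15, pandas 2.3.3 and matplotlib 3.10.9 were used.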

Additional observations from a re-analysis of the deposited data

Results flagged for a closer look

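The log2 ratio of Ldha on replicate 3 of 4 dpi, 0.92, stood far from the other 3 arrays of its time point, with a gap of 0.831 of the whole range to the nearest of them, just past the limit for 4 values (Dixon's test at its 95% level). Chance flags about 1 in 20 such groups, and Ldha at 4 dpi was the 1 group of 4 values among the 5 clones. The same array had the fewest features with a value, 2332, and injured cortex in Cy5, and the part of either in the value was not tested. Without it the mean of 4 dpi was 0.19 in place of 0.38.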

How the results depend on the processing

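Of 110 values of the means and differences of the 5 clones under other settings, 109 kept the sign, and the exception was the difference of Cyp1b1, which ran from -0.55 to 0.62 when 1 array was left out. Since all 23 values of the clones lay above 0, their means could hardly change sign. Some settings also return the main mean by construction, so this count is no measure of robustness. No alternative called a member upregulated at 4 dpi, where 0 were called in each, and only Ldha, or with 2 arrays as enough Ldha, Pdp1 and Plin2, could be tested. With 1 array left out, the means of 4 dpi ran from 0.19 to 0.46 for Ldha, 0.17 to 0.59 for Pdp1 and 0.68 to 1.75 for Plin2, and those of 1 dpi from 0.85 to 0.92, 0.71 to 0.91, 2.40 to 2.72, 1.34 to 2.50 for Cyp1b1 and 0.96 to 1.19 for Cyp2d2. The differences ran from -0.69 to -0.42 for Ldha, -0.61 to -0.19 for Pdp1, -1.83 (without replicate 2 of 4 dpi) to -0.76 (without replicate 1 of 4 dpi) for Plin2 and -0.47 to -0.24 for Cyp2d2. With the arrays scaled to 1 spread, Cyp2d2 had 0.94 in place of 0.72 at 4 dpi and a difference of -0.10 in place of -0.36, since its only value of 4 dpi came from the array with the narrowest spread. Cyp1b1, measured on the same array of 4 dpi, had 2.57 in place of 1.96 and a difference of 0.71 in place of 0.04, and the difference of Plin2 was -0.80 in place of -1.30. Over all features, 193 upregulated calls at 1 dpi became 112 and 84 at 4 dpi became 35 with 0.7 needed on every array, and 151 at 4 dpi with no limit on the mean. Leaving out 1 array gave 121 (without replicate 2) to 196 calls at 1 dpi and 56 (without replicate 2) to 81 at 4 dpi. The 12 downregulated calls of 4 dpi became 3 without replicate 3, 20 with the arrays scaled, 1 with 0.7 needed on every array and 67 with no limit on the mean, and the 75 of 1 dpi became 26 and 136 under those last limits.

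With the replicate number as a block, taken as the mean of the differences within the numbers present at both time points, the difference was -0.42 for Ldha (3 numbers), -1.18 for Plin2 (2 numbers), and, on number 2 alone, -0.33 for Pdp1, 0.62 for Cyp1b1 and -0.24 for Cyp2d2. The arrays share only a number, since different animals were used, and their deviations from the means correlated across features at -0.17, 0.11 and -0.27. Of the pairs of arrays across time points with opposite dyes, 6 of 6 correlated below 0 (-0.32 to -0.03), and of those with the same dye 5 of 6 above 0 (-0.10 to 0.40). The pairs share arrays, and the deviations cancel over the arrays of a time point. The correlations are therefore tied to each other, and the counts are not separate observations.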
